A study of Mus musculus with 7 samples.

Results

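Complex I of the respiratory chain (NADH:ubiquinone oxidoreductase) was followed here through the nuclear genes that carry its name. The members are the rows of the deposited expression table whose symbol begins with Nduf followed by a, b, c, s or v. Described are 44 genes among 23847 rows, each symbol occurring once: 10 Ndufs and Ndufv genes, 27 Ndufa, Ndufb and Ndufc genes, and 7 assembly factors (Ndufaf). All 44 passed the filter on low values. RNA came from ventricular lysates of male mice, labelled 12 weeks old, with no strain or genotype named in the labels. One group had undergone trans-aortic banding (TAB, 3 libraries), in which a suture tied around the aorta against a needle narrows it and loads the left ventricle. The other had a sham operation (Sham, 4 libraries), with the aorta exposed and the suture left untied. Surgery took place at 8 weeks of age by the protocol in the labels. The comparison asks how ventricular transcripts differ after banding.

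Complex I oxidises NADH, passes the electrons through a flavin and a chain of iron-sulfur clusters to ubiquinone, and pumps protons out of the mitochondrial matrix. Its peripheral arm holds a NADH-oxidising module and a ubiquinone-reducing module, and its membrane arm holds the proton pumps. The catalytic core consists of proteins conserved from bacteria. Some of these are encoded in mitochondrial DNA, of which the table holds 0 rows, so they were not analysed here. The nuclear core genes described here are Ndufv1, Ndufv2, Ndufs1, Ndufs3, Ndufs7 and Ndufs8. The other subunits described here are accessory, and the assembly factors act while the complex is built and are not part of it. In the heart, where mitochondria fill much of the cardiomyocyte, complex I is a main entry point for electrons from fuel oxidation.

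Values are FPKM (fragments per kilobase of transcript, scaled to library size), a scale per length. Fold changes are those of log2(FPKM + 1), TAB minus Sham, tested with limma across 11601 genes and called at a Benjamini-Hochberg adjusted p under 0.05. The depth implied by whole-fragment steps among low values was 10.95 to 12.2 M fragments per library. At the lowest of these depths the member with the fewest fragments in any library, Ndufa4l2, rested on about 80.2, and Ndufs1 on at least 9680. Of all tested genes 20.3% were called. The 15 cardiomyocyte markers, none at 0, had a summed FPKM of 87643 to 96178 in TAB and 88785 to 95209 in Sham. Of these markers 6 fell, 2 rose and 7 were not called. Of 12 fibroblast markers 9 were higher, of 12 macrophage markers 6, and of 12 endothelial markers 5, with 0 lower in these lists. Whether each library came from its own animal is not stated in the labels, and the p-values cover the spread among these libraries, which may be technical.

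The subunit genes were highly expressed, while the assembly factors were far lower. Leaving out Ndufa4 and Ndufa4l2, whose products are not complex I subunits, mean FPKM of 35 subunits lay between 87.1 and 1224 in TAB and between 82.1 and 1313 in Sham. The highest of these subunits in TAB was Ndufb8 and in Sham Ndufa3, both of the membrane arm, and the lowest in both groups was Ndufa11. The 7 Ndufaf genes had mean FPKM of 7.56 to 40.8 in TAB and 8.17 to 40.4 in Sham. Many subunit transcripts are shorter than 1 kb, where FPKM depends on how fragment length is corrected, so the order of levels between genes is approximate. The 37 members other than Ndufaf, with Ndufa4 and Ndufa4l2 included, held 3.64% to 3.97% of all FPKM in the TAB libraries. In the Sham libraries they held 4.00% to 4.13%, and these shares did not overlap. Their summed FPKM did overlap, at 19053.6 to 21242.3 in TAB and 20418.5 to 21816.9 in Sham, with TAB 2 the highest TAB library.

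After banding a small number of complex I genes were lower. Of the 44 members 3 fell, Ndufs1, Ndufv1 and Ndufab1, and their mean FPKM fell by 9.77% in Ndufv1, the least, and fell by 16.5% in Ndufs1, the most. Ndufa4l2 was the 1 that rose, and 40 were not called. The 3 that fell are 6.82% of the members, near the 7.05% of all tested genes called lower. The 1 that rose is 2.27%, where 13.3% of all tested genes were called higher. TAB lay below every Sham library in 6 members (13.6%), where 11.2% of all tested genes did, and above every Sham library in 1, where 19.9% did. The log2 fold change was below 0 in 34 of 44 members and in 38.6% of all tested genes, and its median was -0.07 over the members and 0.05 over all tested genes. The members' median was -0.11 without TAB 2, -0.04 without TAB 3 and -0.03 without Sham 2 and TAB 3 together, with 37, 33 and 27 of 44 below 0. In bulk tissue, fewer cells of a type and less RNA per cell cannot be told apart.

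**Figure D1:**
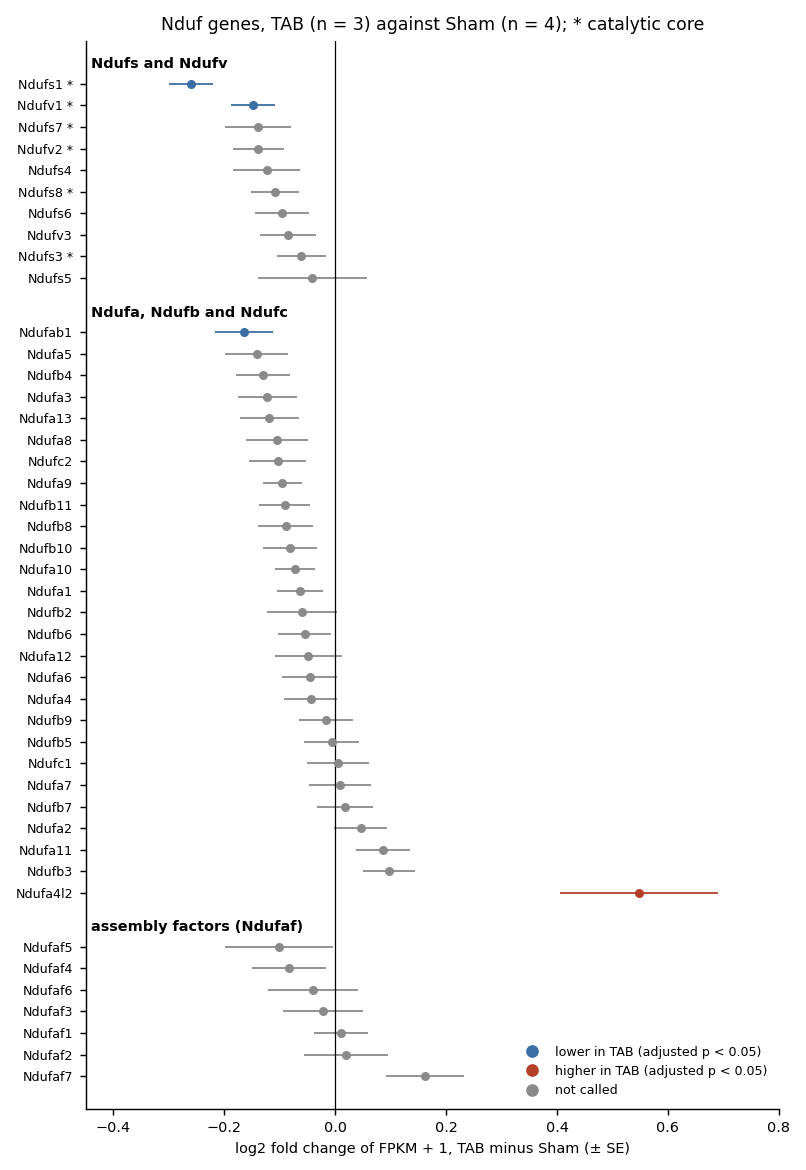
Log2 fold change of FPKM + 1 (TAB minus Sham, horizontal axis, ± SE) for each of the 44 members, grouped by name, with 6 nuclear genes of the catalytic core starred. The 10 Ndufs and Ndufv points all lie below 0, Ndufs1 farthest at -0.26, and Ndufa4l2 stands alone at 0.55.

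Of the 10 Ndufs and Ndufv genes 2 fell, 0 rose and 8 were not called, where 7.05% of all tested genes fell. The difference from the Ndufa, Ndufb and Ndufc genes was not tested. Their median change was -0.12 on the log2 scale. The name does not mark the core, since Ndufs4, Ndufs5, Ndufs6 and Ndufv3 encode accessory subunits. None of these 4 was called (median -0.09, with 0 at an unadjusted p under 0.05 in the limma fit). Within the 6 core genes described 2 fell and 4 were not called, the median was -0.14, and 5 were lower at an unadjusted p under 0.05, as were 1324 of all 11601 tested genes. TAB lay below every Sham library in 4 of the 6, and in 11.2% of all tested genes.

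Ndufs1, which encodes the largest subunit and carries iron-sulfur clusters of the NADH-oxidising module, fell most. It was at 343, 341 and 343 FPKM in TAB 1 to 3, against 412, 428, 409 and 392 FPKM in Sham 1 to 4. The TAB values nearly coincided, and the lowest Sham library stood clearly above them. The means were 342 ± 0.996 (SD, n = 3) in TAB and 410 ± 14.5 (SD, n = 4) in Sham, and the fold change was -0.26 ± 0.04 SE on the log2 scale (adjusted p = 0.00158). The call held under all 19 alternatives tried, with values from -0.32 to -0.24. The gene spans 63143592 to 63176822 of chromosome 1 (mm10) on the minus strand and overlaps Eef1b2 and Ino80dos on the other strand. Eef1b2 had 87.8 to 89.97 FPKM in TAB and 79.1 to 85.7 FPKM in Sham and was not called (adjusted p = 0.0987). Use of strand in counting is not given in the sources used here.

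Ndufv1, which binds NADH and the flavin FMN, had 521, 549 and 539 FPKM in TAB, against 574, 612, 591 and 601 FPKM in Sham. The groups did not overlap. The gene lies at 4007505 to 4012725 of chromosome 19 on the minus strand. Its log2 fold change was -0.15 ± 0.04 SE (adjusted p = 0.0228). Leaving out any of Sham 2, Sham 4, TAB 1 and TAB 3 ended the call, as did a fit without both limma's variance trend and its robust option (adjusted p between 0.0545 and 0.109). Without both Sham 2 and TAB 3, the libraries with most atrial transcripts in their groups, the adjusted p was 0.109 for Ndufv1 and 0.271 for Ndufab1. Summed FPKM of the 4 atrial markers was 949 to 2489 in TAB and 224 to 739 in Sham, and none was at 0. Most of this sum was Nppa, at 947, 917 and 2187 FPKM in TAB and 140 to 457 FPKM in Sham (adjusted p = 0.0339 in limma). Sln, Myl7 and Myl4 overlapped between groups and were not called (log2 fold changes 0.04, 0.01 and -0.21). The atrial covariate was built from Sln, Myl7 and Myl4, without Nppa, and with it Ndufs1 and Ndufv1 were still called.

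The other core genes described here were not called. Ndufv2, the partner of Ndufv1, had 303.2, 314.2 and 280.03 FPKM in TAB, against 328.97, 339.8, 326.9 and 320.5 FPKM in Sham (log2 fold change -0.14 ± 0.05 SE, adjusted p = 0.0579). Ndufs8, which carries a pair of iron-sulfur clusters near the ubiquinone site, had 307.2, 318.6 and 304.9 FPKM in TAB, against 320.8, 352.6, 326.1 and 338.5 FPKM in Sham (-0.11 ± 0.04 SE, adjusted p = 0.107). In both genes the TAB libraries lay under every Sham library, by a narrow margin in Ndufs8.

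Ndufs7, which holds the last cluster before ubiquinone, had 465, 527 and 460 FPKM in TAB, against 517, 562, 498 and 555 FPKM in Sham (-0.14 ± 0.06 SE, adjusted p = 0.127). Ndufs3, a scaffold of the ubiquinone-reducing module, had 427, 460 and 418 FPKM in TAB, against 457, 458, 437 and 463 FPKM in Sham (-0.06 ± 0.04 SE, adjusted p = 0.361, 95% interval -0.16 to 0.04). TAB 2 lay inside the Sham range in both. Without TAB 2, Ndufv2 and Ndufs7 were called (adjusted p = 0.0295 and 0.0291). Without TAB 3 their log2 fold changes were -0.09 and -0.10 (adjusted p = 0.217 and 0.337), and without Sham 2 and TAB 3 together both were -0.08 (adjusted p = 0.346 and 0.511).

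**Figure D2:**
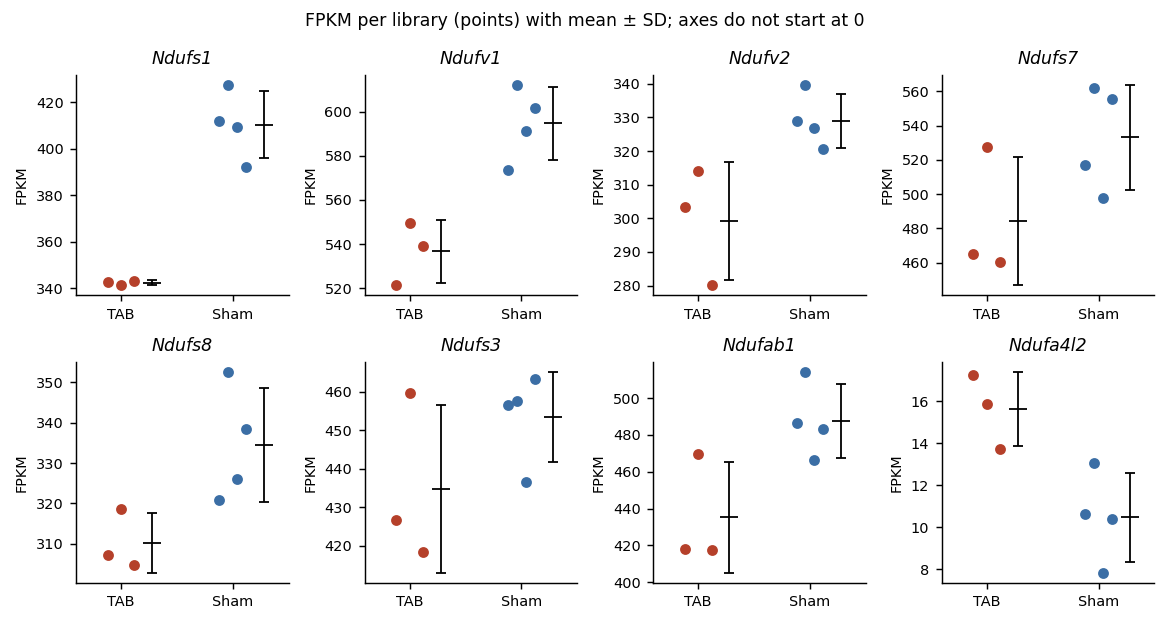
FPKM per library (points, vertical axis, not starting at 0) of 6 core genes, Ndufab1 and Ndufa4l2 in TAB (left, n = 3) and Sham (right, n = 4), with mean ± SD beside them. The 3 TAB values of Ndufs1 lie within 341 to 343 FPKM, and TAB 2 is the highest TAB point in 6 of the 8 panels.

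One TAB library stood apart in the subunit genes. TAB 2 was the highest of the TAB libraries in 32 of 35 subunits and TAB 3 the lowest in 24, while Sham 2 was the highest Sham library in 26 and Sham 3 the lowest in 21. Relative to the Sham mean of each gene, the median log2 level of the 29 subunits outside the core was -0.09 in TAB 1, 0.02 in TAB 2 and -0.14 in TAB 3. It was between -0.04 and 0.06 in the Sham libraries. For the 6 core genes it was -0.16, -0.07 and -0.17 in TAB 1 to 3, and between -0.02 and 0.05 in Sham. TAB 2 also had the highest summed cardiomyocyte markers (96178 FPKM) and the lowest summed fibroblast markers of the TAB libraries (1065 FPKM, against 1294 and 1311 in TAB 1 and TAB 3). Summed over all rows, FPKM was 535455 in TAB 2, against 519844 in TAB 1 and 523646 in TAB 3. Among the Sham libraries that sum was highest in Sham 2, at 527854. The median log2 level of all tested genes, relative to the Sham mean, was 0.06, 0.04 and 0.04 in TAB 1 to 3. The part of the markers or of these whole-table differences in the subunit levels was not tested. Without TAB 2, 11 members were called lower, 5 Ndufs and Ndufv and 6 Ndufa, Ndufb and Ndufc genes, where 6.21% of all tested genes were.

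Scaling between libraries also moved the count. Median-of-ratios rescaling called 6 Ndufs and Ndufv genes and 9 Ndufa, Ndufb and Ndufc genes lower, and quantile normalization called 6 and 7. Over all genes these scalings called 10.8% and 10.6% lower and 8.94% and 9.01% higher. They turned the split of all calls to 1037 higher and 1251 lower, and to 1045 higher and 1225 lower, against 1542 higher and 818 lower on the deposited scale. They shifted the median log2 fold change of all tested genes by -0.05 and -0.06.

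**Figure D3:**
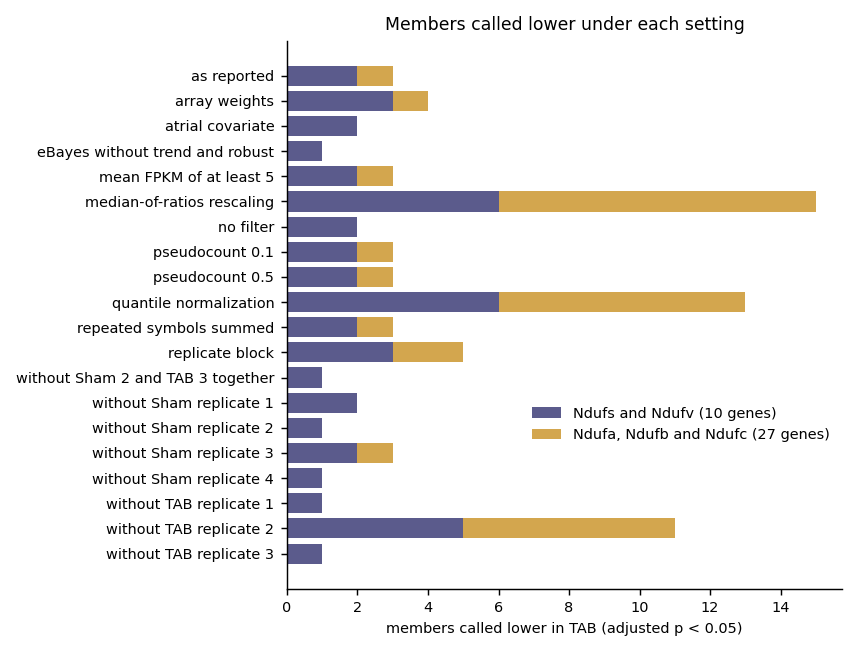
Number of members called lower in TAB (horizontal axis) under the reported fit and 19 alternatives, split into Ndufs and Ndufv and Ndufa, Ndufb and Ndufc genes. The reported fit gives 2 and 1, and the longest bars are those of median-of-ratios rescaling (6 and 9), quantile normalization (6 and 7) and the fit without TAB 2 (5 and 6).

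A ratio taken within a library does not change under median-of-ratios rescaling, which multiplies a library by 1 factor, though it can under quantile normalization. The log2 ratio of Ndufs1 to the median FPKM of the 29 subunits outside the core was -0.46, -0.58 and -0.43 in TAB 1 to 3, against -0.26, -0.27, -0.30 and -0.38 in Sham 1 to 4. Every TAB library was lower, by 0.19 on average, and TAB 2 was the lowest. The groups overlapped for the ratios of Ndufv1 (mean difference -0.08), Ndufv2 (-0.07), Ndufs7 (-0.07), Ndufs8 (-0.04), Ndufs3 (0.01) and Ndufab1 (-0.09). These differences are descriptive, since the genes compared were known to differ.

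**Figure D4:**
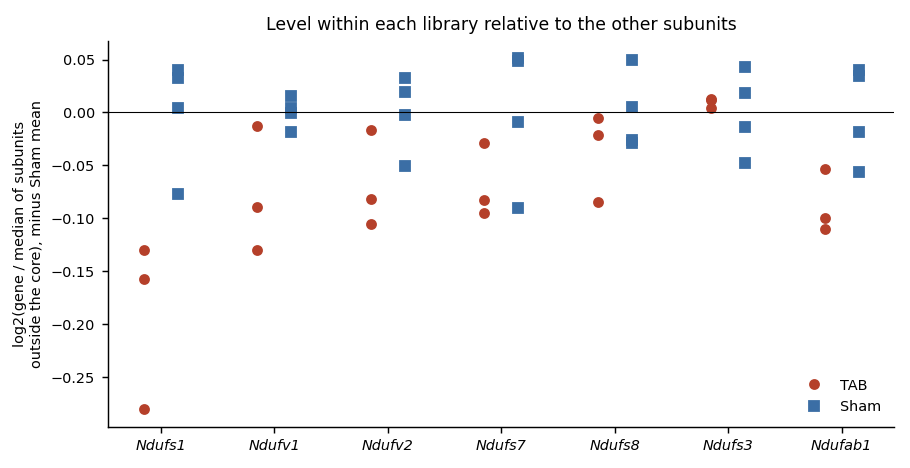
Log2 ratio of each gene to the median of the 29 subunits outside the core in the same library, minus the Sham mean of that ratio (vertical axis), for 6 core genes and Ndufab1 in TAB (circles, n = 3) and Sham (squares, n = 4). Ndufs1 is the gene here whose TAB points all lie below its Sham points.

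Among the accessory genes Ndufab1 was the exception. It encodes the mitochondrial acyl carrier protein, which sits in complex I at a pair of places and also serves fatty acid synthesis and iron-sulfur cluster assembly. It had 418, 470 and 418 FPKM in TAB, against 486, 514, 466 and 483 FPKM in Sham. TAB 2 lay just above the lowest Sham library, and the others lay below all of them. The log2 fold change was -0.17 ± 0.05 SE (adjusted p = 0.0469). Leaving out any of Sham 1, Sham 2, Sham 4, TAB 1 and TAB 3 ended the call (adjusted p between 0.0796 and 0.177), as did testing without a filter, without both the trend and robust options or with an atrial covariate (adjusted p between 0.0625 and 0.108). The gene lies at 122088044 to 122101848 of chromosome 7 on the minus strand. An annotated processed pseudogene, Ndufab1-ps, can share its reads.

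Promoter sequences from RefSeq (GRCm38.p6, 250 bases before to 50 after the start) were matched for 39 of the 44 members. Ndufs1, Ndufa4l2, Ndufa2, Ndufaf6 and Ndufb9 had no entry. The promoters of Ndufv1 and Ndufab1 are shown because these are the members that fell and have an entry. They were searched on both strands for the motifs of 4 regulators of mitochondrial genes, and neither holds any of them, so they carry no capitals.
Ndufv1, chr19:4012706-4013005, minus strand: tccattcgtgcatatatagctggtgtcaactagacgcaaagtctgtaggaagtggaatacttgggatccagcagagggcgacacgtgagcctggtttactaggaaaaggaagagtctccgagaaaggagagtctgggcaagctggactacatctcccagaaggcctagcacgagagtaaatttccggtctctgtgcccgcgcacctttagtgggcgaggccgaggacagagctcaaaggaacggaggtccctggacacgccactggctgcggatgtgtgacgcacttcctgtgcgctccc
Ndufab1, chr7:122101799-122102098, minus strand: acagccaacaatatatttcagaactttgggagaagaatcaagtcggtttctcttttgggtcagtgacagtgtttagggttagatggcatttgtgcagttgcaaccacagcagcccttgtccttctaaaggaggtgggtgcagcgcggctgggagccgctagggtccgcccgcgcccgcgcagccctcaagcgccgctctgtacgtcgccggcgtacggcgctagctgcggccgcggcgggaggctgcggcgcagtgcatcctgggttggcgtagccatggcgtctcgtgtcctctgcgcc

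The motifs were TCAAGGTCA for estrogen-related receptors, CCGGAAGT for ETS factors such as GABPA, and those of NRF1 and YY1, whose letters are the capitals in the windows shown next. The estrogen-related receptor letters were in 0 of 39 member promoters and 0.268% of 8578 promoters of tested genes. The ETS letters were in 1 member promoter (2.56%, against 8.84% of all), that of Ndufs3. A match describes these letters and not a bound site.

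The NRF1 letters were in 3 member promoters (7.69%, against 2.26% of all), those of Ndufa11 and of the assembly factors Ndufaf4 and Ndufaf5. None of these genes was called.
Ndufa11, chr17:56717687-56717715, plus strand: acaaacctgcactgcGCGCATGCGCgcac
Ndufaf4, chr4:24897955-24897983, plus strand: aacgcccagatgtctGCGCATGCGCctgt
Ndufaf5, chr2:140170647-140170675, plus strand: gtcgtagtcccgttgGCGCATGCGCctaa

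The YY1 letters were in 4 member promoters (10.3%, against 1.81% of all), beginning 25 to 36 bases after the start in each. These were Ndufa9, Ndufs4, Ndufs6 and Ndufs7, with log2 fold changes of -0.10, -0.12, -0.10 and -0.14, none of which was called.
Ndufa9, chr6:126849101-126849130, minus strand: gaggcattgtgggagAAGATGGCGGCcgcc
Ndufs4, chr13:114388045-114388074, minus strand: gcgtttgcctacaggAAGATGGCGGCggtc
Ndufs6, chr13:73328435-73328464, minus strand: tcaagggtcaccggcAAGATGGCGGCggtg
Ndufs7, chr10:80249458-80249487, plus strand: ctgaaggccgaggccAAGATGGCGGCgctg

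None of the remaining accessory genes was called, and they are given here by structural module with their log2 fold changes. In the NADH-oxidising module Ndufv3 (-0.08), Ndufs4 (-0.12), Ndufs6 (-0.10), Ndufa2 (0.05), Ndufa6 (-0.05), Ndufa7 (0.01) and Ndufa12 (-0.05) surround the flavin and cluster subunits. Of these Ndufs4 and Ndufs6 are needed to attach the module, and loss of either harms mice. In the ubiquinone-reducing module the accessory genes were Ndufa5 (-0.14) and Ndufa9 (-0.10). Ndufa9, chosen for its values, had 471, 478 and 462 FPKM in TAB, against 493, 505, 502 and 509 FPKM in Sham, without overlap (adjusted p = 0.0821).

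Limma called 20.3% of all 11601 tested genes, 7.05% as lower, and 1324 were lower at an unadjusted p under 0.05. In the proximal membrane arm 0 of 9 genes were called by limma, and 2 had an unadjusted p under 0.05, both lower. Their log2 fold changes were -0.12 for Ndufa3 and Ndufa13, -0.10 for Ndufa8 and Ndufc2, -0.07 for Ndufa10, -0.06 for Ndufa1, -0.04 for Ndufs5, 0.01 for Ndufc1 and 0.09 for Ndufa11. In the distal membrane arm 0 of 10 were called, with 1 lower at an unadjusted p under 0.05. They were -0.13 for Ndufb4, -0.09 for Ndufb8 and Ndufb11, -0.08 for Ndufb10, -0.06 for Ndufb2 and Ndufb6, -0.02 for Ndufb9, -0.01 for Ndufb5, 0.02 for Ndufb7 and 0.10 for Ndufb3. The 95% intervals of these 19 genes ran from -0.26 at the lowest to 0.20 at the highest. Copies of Ndufb4, Ndufs6 and Ndufa11 are annotated as processed pseudogenes, so their values are less certain. Copies were sought by symbol only, so pseudogenes under other names were not covered. Ndufa13, Ndufb2, Ndufb8 and Ndufb9 each overlap an annotated protein-coding gene on the same strand.

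The 2 members that bear the name without being complex I subunits went apart. Ndufa4, now placed with cytochrome c oxidase, had the highest mean level of all 44 members, with 1965, 2116 and 1894 FPKM in TAB, against 2011, 2155, 1967 and 2075 FPKM in Sham. The groups overlapped (log2 fold change -0.04 ± 0.05 SE, adjusted p = 0.567). Its paralog Ndufa4l2, induced by hypoxia through HIF-1 and described as lowering complex I activity, had 17.3, 15.9 and 13.7 FPKM in TAB, against 10.6, 13.0, 7.84 and 10.4 FPKM in Sham. All TAB libraries were higher, TAB 3 by a narrow margin over Sham 2. The means were 15.6 ± 1.77 (SD, n = 3) in TAB and 10.5 ± 2.12 (SD, n = 4) in Sham, and the log2 fold change was 0.55 ± 0.14 SE (adjusted p = 0.0268). Leaving out any of Sham 1, Sham 4, TAB 1 and TAB 2 ended the call (adjusted p between 0.0566 and 0.103).

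Ndufa4l2 lies at 127514939 to 127517156 of chromosome 10 and overlaps Shmt2 on the other strand. Shmt2 had 16.8 to 18.8 FPKM in TAB and 18.1 to 19.2 FPKM in Sham and was not called (adjusted p = 0.62). Ndufa4l2 is also known from pericytes. Of 11 smooth muscle and pericyte markers 6 were higher, 1 lower and 4 not called, and their summed FPKM was 351 to 396 in TAB and 340 to 350 in Sham, with none at 0. Their part in the level of Ndufa4l2 was not tested.

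No Ndufaf assembly factor was called. In the limma fit 0 of 7 passed in either direction, where 20.3% of all tested genes did. At an unadjusted p under 0.05 there was 1, higher in TAB, where 2596 of 11601 tested genes were higher. The median log2 fold change of the 7 was -0.02. Their median standard error was 0.07, against 0.05 for the members without Ndufaf. Ndufaf1, which helps build the membrane arm within the MCIA complex, had 41.5, 38.2 and 42.6 FPKM in TAB, against 40.002, 40.2, 41.3 and 40.2 FPKM in Sham. The TAB values surrounded those of Sham (95% interval of the log2 fold change -0.10 to 0.12).

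Ndufaf7, a mitochondrial methyltransferase, had 14.6, 12.4 and 13.3 FPKM in TAB, against 10.8, 11.9, 12.7 and 12.1 FPKM in Sham (log2 fold change 0.16 ± 0.07 SE, adjusted p = 0.132). It was the one with an unadjusted p under 0.05, and TAB 2 lay within the Sham range. Ndufaf5, which hydroxylates Ndufs7, had 6.64, 8.69 and 7.34 FPKM in TAB, against 8.61, 9.17, 7.12 and 7.77 FPKM in Sham (-0.10 ± 0.10 SE, 95% interval -0.32 to 0.11). It had the lowest mean level of the 44 members and rested on about 84.8 fragments at its lowest.

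Ndufaf2, an assembly paralog of Ndufa12, had 32.9, 36.2 and 36.6 FPKM in TAB, against 37.5, 37.6, 34.0 and 30.3 FPKM in Sham. Ndufaf3 had 24.9, 25.2 and 26.2 FPKM in TAB, against 26.5, 26.1, 22.5 and 28.6 FPKM in Sham. Its partner Ndufaf4 had 19.8, 20.2 and 18.1 FPKM in TAB, against 21.7, 22.1, 19.6 and 19.1 FPKM in Sham. The groups overlapped in each of these genes. Ndufaf6 had 11.4, 10.7 and 11.1 FPKM in TAB, against 11.1, 13.1, 9.99 and 11.5 FPKM in Sham, and all TAB values lay inside the Sham range. The log2 fold changes of these 4 genes lay between -0.08 and 0.02.

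Complex I assembly also needs proteins without the Nduf prefix, and 1 of 15 such genes rose and 2 fell, together near the 20.3% called among all tested genes. Chchd4, the import oxidoreductase of the intermembrane space, had 27.3, 27.8 and 27.0 FPKM in TAB, against 22.7, 22.2, 24.4 and 22.7 FPKM in Sham (log2 fold change 0.24 ± 0.05 SE, adjusted p = 0.00691). Aifm1, the flavoprotein that binds Chchd4, had 48.2, 47.5 and 50.3 FPKM in TAB, against 58.3, 55.4, 53.4 and 54.2 FPKM in Sham (-0.18 ± 0.05 SE, adjusted p = 0.0194). These partners thus changed in opposite directions, each without overlap between groups. Tmem70, which acts in the assembly of complex I and ATP synthase, had 53.1, 53.1 and 53.3 FPKM in TAB, against 60.7, 62.9, 56.6 and 59.9 FPKM in Sham (-0.17 ± 0.05 SE, adjusted p = 0.0235).

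The call of Chchd4 held under all 19 alternatives. That of Tmem70 ended when Sham 1, Sham 2 or any TAB library was left out (adjusted p between 0.0531 and 0.0753), and that of Aifm1 when Sham 1, TAB 1 or TAB 2 was (adjusted p between 0.05 and 0.0711). Neither was called without Sham 2 and TAB 3 together (adjusted p = 0.123 for Tmem70 and 0.0594 for Aifm1), nor Tmem70 without both the trend and robust options (adjusted p = 0.0571). The other 12, among them Ndufaf8 under the symbol 1810043H04Rik, were not called, and the median of all 15 was -0.01. They included these MCIA complex genes, picked with their values seen: Acad9 (-0.01), Ecsit (-0.07), Timmdc1 (0.12) and Tmem126b (0.13).

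Other genes of mitochondrial oxidation are set beside complex I as a description. Of all tested genes 7.05% fell and 13.3% rose. Among the 37 Nduf members other than Ndufaf, 3 fell (8.11%) and 1 rose (2.70%). Among 42 genes of complexes II to V, 11 fell (26.2%) and 1 rose (2.38%), with a median log2 fold change of -0.11. Among 18 tricarboxylic acid cycle genes 14 fell (77.8%) and 0 rose (median -0.19). The last list shares its 4 succinate dehydrogenase genes with complex II. The medians were -0.14 for the complex I core, -0.07 for its other subunits, -0.19 for complex II, -0.10 for complexes III and IV and -0.11 for complex V. Differences between these lists were not tested.

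**Figure D5:**
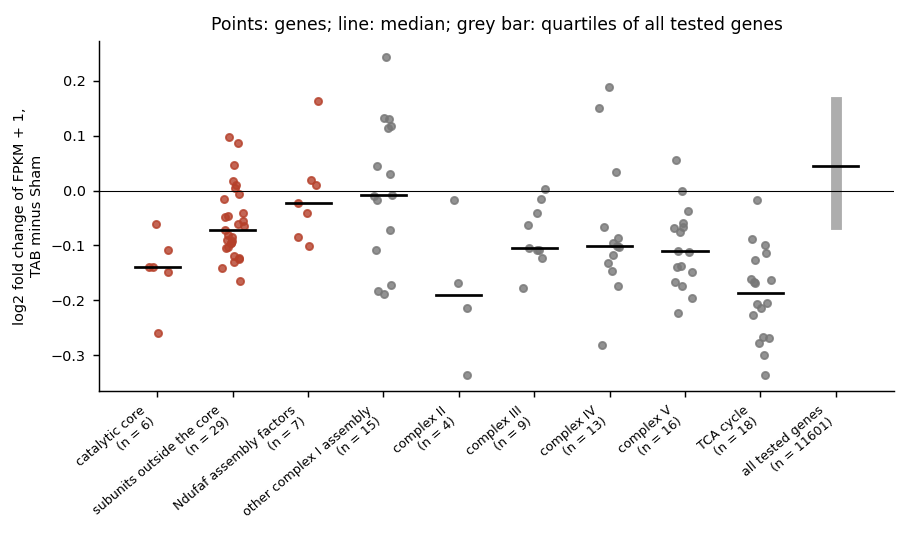
Log2 fold change of FPKM + 1 (TAB minus Sham, vertical axis) for genes of complex I (red) and of related lists (grey), with the median of each as a line and the quartiles of 11601 tested genes as a bar. The 6 core genes have a median of -0.14, the 29 other subunits -0.07, the tricarboxylic acid cycle genes -0.19 and all tested genes 0.05.

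Longer subunit transcripts had lower fold changes. Across the 35 subunits the log2 fold change was correlated with log2 transcript length at Pearson r = -0.54 and Spearman rho = -0.55, as a description over genes that share libraries. Across 10636 tested genes with a known length these were -0.08 and -0.10. The core genes are longer (median 1353.5 bases, 6 genes) than the other subunits (median 683 bases, 29 genes). Within those other 29 subunits the correlation was -0.39 and -0.43. With coding length in place of transcript length it was -0.50 and -0.42 across the 35 subunits, and -0.24 and -0.24 within the 29. With mean level it was -0.19 and -0.06 across all 35 subunits, and -0.29 and -0.20 within the 29.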

How the data were processed

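RNA sequencing of polyA-selected, stranded libraries from mouse ventricles gave 1 deposited table of FPKM values for 3 TAB and 4 Sham libraries. The submitters' processing notes name TopHat, Cufflinks and the build mm10 for the FPKM values the authors deposited. Versions, annotation and the use of strand in counting are not given in those sources. FPKM are not counts and keep no exact depth, so no count model was run, and depth was estimated from low values near whole fragments (60.4% to 69.7% of 122 to 145 values per library within 5%). Starts in the table were raised by 1, since the start of 9 of 44 members then equalled that in GENCODE M21, against 2 unchanged. The starts of the other members matched GENCODE M21 neither way. Strand, overlapping genes and lengths were taken from GENCODE M21.

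Log2(FPKM + 1) was fitted with limma 3.58.1 in R 4.3.3 (empirical Bayes with trend and robust options, no covariates) over 11601 rows, called genes here, with at least 1 FPKM in at least 3 of 7 libraries. The 751 rows of the table whose symbol occurs more than once were each kept as a row, and a listed gene was read from its row of highest mean; no member is among them. P-values were adjusted by Benjamini-Hochberg over all tested genes and called under 0.05. The limma step was also run on simulated libraries whose genes varied independently. That run does not cover scaling or shifts shared by the genes of a library. Intervals are at 95%. The fold change of genes at low FPKM is understated by the pseudocount.

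The alternatives were pseudocounts of 0.1 and 0.5, no filter, a mean of at least 5 FPKM, median-of-ratios and quantile scaling, a fit without both the trend and robust options, limma's array weights, a replicate block, summed symbols, an atrial covariate, each library left out, and Sham 2 and TAB 3 left out together. Of the 45 rows that match, 1 is not reported here and enters no count over members. Members, gene lists and tests were chosen with earlier results of these data known. Values per library are given for the 6 nuclear core genes described, called members, every Ndufaf gene, Ndufa4, Ndufa4l2 and called other assembly factors. Lengths are of the shortest transcript among those with the longest coding sequence.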

Additional observations from a re-analysis of the deposited data

How the results depend on the processing

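Ndufs1 and Chchd4 kept their calls under all 19 alternatives. The counts of called genes moved more. Ndufs and Ndufv genes called lower, 2 as reported, were 6 with median-of-ratios scaling, 6 with quantile scaling, 1 without the trend and robust options together, 1 without Sham 2 and TAB 3 together, and 1 to 5 with 1 library left out (5 without TAB 2, 1 without Sham 2, Sham 4, TAB 1 or TAB 3). Ndufa, Ndufb and Ndufc genes called lower, 1 as reported, were 9 and 7 with these scalings, 0 without a filter, without these options, with the atrial covariate and without Sham 2 and TAB 3 together, and 0 to 6 with 1 library left out. Members called higher were 0 to 1 with 1 library left out, being 0 without Sham 1, Sham 4, TAB 1 or TAB 2. Ndufaf genes called lower were 0 throughout, where 7.05% of all tested genes were called lower in the reported fit. All tested genes called, 2360 as reported, were 1353 without Sham 2 and TAB 3 together and 1440 (without TAB 1) to 2080 with 1 library left out. Other assembly factors called, 3 as reported, were 1 without Sham 2 and TAB 3 together and 1 to 4 with 1 library left out. The causes were not tested, and each fit that left libraries out also had fewer of them.

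Same-numbered TAB and Sham libraries deviated together at correlations of 0.08, 0.17 and 0.17. TAB 2 and TAB 3 each correlated best with the Sham library of the same number, while TAB 1 correlated best with Sham 3 (0.10). The labels state no pairing, so the reported fit did not pair libraries by number, and a shared batch was not tested. With the replicate block, 2 Ndufa, Ndufb and Ndufc genes and 1 other assembly factor were called, and the changes of Ndufaf2 and Ndufaf3 were -0.0441 and 0.0252. No TAB library is numbered 4, so the block drew its fold changes from the libraries other than Sham 4. These changes of Ndufaf2 and Ndufaf3 are the same as in the fit without Sham 4, so they do not show an effect of pairing.

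Values near 0, none called, changed sign as follows on the log2 scale. Ndufaf1 was -0.0479 with median-of-ratios scaling, -0.0298 with quantile scaling and -0.0232 without Sham 2 and TAB 3 together, and -0.021 to 0.0544 with 1 library left out. Ndufaf2 was -0.0378, -0.0233 with these scalings and -0.0051 with array weights, and -0.0441 to 0.067 with 1 library left out. With 1 library left out Ndufaf3 ran from -0.0859 to 0.0252, Ndufaf6 from -0.0974 to 0.024 and the Ndufaf median from -0.0859 to 0.0077. Without Sham 2 and TAB 3 together Ndufaf6 was 0.0216, Ndufa4 0.0154 and the Ndufa, Ndufb and Ndufc median 0.005. The lowest estimated fragment numbers were those of Ndufa4l2 and Ndufaf5, about 80.2 and 84.8, from FPKM, full transcript length and the lowest depth.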

Other observations

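Ndufs5, an accessory subunit of the membrane arm, was chosen after its values were seen because its libraries ran against the other subunits. It had 186, 143 and 182 FPKM in TAB, against 159, 178, 168 and 193 FPKM in Sham. TAB 2 was the lowest of all libraries here, while it was the highest TAB library in 32 of 35 subunits. Its standard error, 0.10 on the log2 scale, was about that of Ndufaf5, a gene of far lower level.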
